A study of Mus musculus with 2 samples.

Results

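The class 3 semaphorins and their neuropilin and plexin receptors were examined in nuclei of the mouse hippocampus: 5 secreted ligands (Sema3a, Sema3c, Sema3d, Sema3e and Sema3f), the co-receptors Nrp1 and Nrp2, and Plxnd1, which encodes plexin D1. The genes were taken by symbol, and each of the 8 matched 1 of the 33696 genes counted. Single-nucleus RNA sequencing had been done on hippocampi of mice at postnatal day 19. The control library came from Cicflox/flox mice, in which both copies of Cic, the gene of the transcriptional repressor Capicua, carry recombinase sites. The other library, labelled knockout, came from littermates of the genotype Emx1-Cre; Cicflox/flox, which carry the same floxed alleles and also Cre recombinase under the control of Emx1, a gene active in the lineage of the dorsal telencephalon. Inhibitory neurons and microglia of the hippocampus arise outside that lineage. Tissue of 3 mice (2 males and a single female) was pooled into each library. With 1 library per genotype there was no replicate, so no test was made, and every interval below covers counting error only.

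Class 3 semaphorins are secreted proteins that turn or repel growing axons and are also used in synapse and myelin development. Most of them bind a neuropilin, which has little signalling capacity of its own and hands the signal to a plexin of the A family. Sema3a is the classical ligand of Nrp1, Sema3f that of Nrp2, and Sema3c can use both, while Sema3e binds plexin D1 directly. In the hippocampus, semaphorin and neuropilin signals are known for sorting the axons of dentate granule cells, the mossy fibres, along CA3 pyramidal cells, and the series' title concerns that projection.

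After removal of called doublets, 21865 nuclei of the control and 20531 of the library labelled knockout were used, with medians of 9790 and 8766 unique molecular identifiers (UMIs, each counting 1 captured RNA molecule). The libraries held 314453640 and 252995761 UMIs in all, and 175 cell barcodes occurred in both. Clusters of nuclei were named from marker genes and are called "like" the cell type for that reason. Of 22 named classes, 18 had at least 100 nuclei in each library and are compared here. Of the nuclei, 2.92% in the control and 4.21% in the other library stayed unnamed. Cic itself did not separate the libraries as its label would. Levels are given in CPM, the usual scaling of the UMIs of a gene by all UMIs of the class in that library, with the control first in each pair. Cic stood at 9.14 and 12.8 CPM in granule-like nuclei and at 9.90 and 9.57 in inhibitory-like nuclei. It was higher in the library labelled knockout in CA1-like nuclei, at 6.46 and 12.4 (log2 ratio 0.94, 0.68 to 1.21), and in oligodendrocyte-like nuclei, at 18.2 and 33.7 (0.88, 0.58 to 1.19). The sources do not say which exons are floxed, so these counts cannot check the deletion, and the second library is called the library labelled knockout throughout. Etv4, a known target of Capicua repression, stood at 1.04 and 113 CPM in granule-like nuclei and at 2.32 and 9.51 in inhibitory-like ones.

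The ligands occupied different cell types in the control library, and the order below compares the 18 classes for 1 gene at a time. Among the smaller classes left out, mossy-like nuclei held 627 CPM of Sema3e, endothelial-like nuclei 535 of Sema3c and 38.2 of Plxnd1 (7 UMIs), and fibroblast or leptomeningeal-like nuclei 109 of Sema3a (26 UMIs). Sema3c was the leading gene of the immature granule-like cluster, also with the family and the called genes left out of the clustering. It stood at 1359 CPM there, at 549 in cycling progenitor-like nuclei and at 98.0 and 95.5 in inhibitory-like and ependymal-like nuclei, whose intervals overlapped. The ependymal-like cluster was shallow, with a median of 1269 UMIs in the control. Free RNA was estimated, as an upper limit, at 32.5% of its control UMIs. In the clustering without the family and the called genes the ependymal-like cluster held 21 control nuclei and 41.4 CPM of Sema3c, from 5 UMIs. In mature granule-like nuclei it stood at 16.9. Sema3d belonged to the oligodendrocyte lineage, with 590 CPM in precursor-like nuclei, 410 in committed precursor-like nuclei and 73.8 in oligodendrocyte-like nuclei. Cycling progenitor-like nuclei gave 163, nearly all of it from cluster 31, the one of the pair with precursor markers, CA3-like nuclei 20.1 and CA1-like nuclei 0.906. Sema3e was highest in pyramidal nuclei among the 18 classes but was not confined to them. It stood at 458 CPM in CA1-like, 405 in deep-layer excitatory-like, 370 in CA3-like and 358 in ventral CA1-like nuclei, and the counting intervals of the last 2 overlapped. Immature granule-like nuclei followed at 286 and CA2-like nuclei at 268, with overlapping intervals. Committed precursor-like nuclei held 192 and subicular or cortical excitatory-like nuclei 95.2. Sema3a was highest in immature granule-like nuclei, at 90.0, and in cycling progenitor-like nuclei, at 79.3, whose intervals overlapped. Sema3f did not exceed 6.17 CPM in any of the 18 classes, the highest value being that of deep-layer excitatory-like nuclei.

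Of the receptors, Nrp1 stood at 731 CPM in control CA3-like nuclei. It was higher in immature granule-like nuclei, at 1258, and lower in mature granule-like (543), CA1-like (302) and inhibitory-like nuclei (114). Nrp2 was also highest in immature granule-like nuclei, at 608, and stood at 173 in CA3-like, 172 in microglia-like and 158 in mature granule-like nuclei, with overlapping intervals between neighbours, against 32.1 in CA1-like nuclei. Plxnd1 was a gene of Cajal-Retzius-like nuclei, the early-born reelin cells of the outer layers. They held 79.3 CPM of it, and no other of the 18 classes held more than 7.31.

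**Figure D1:**
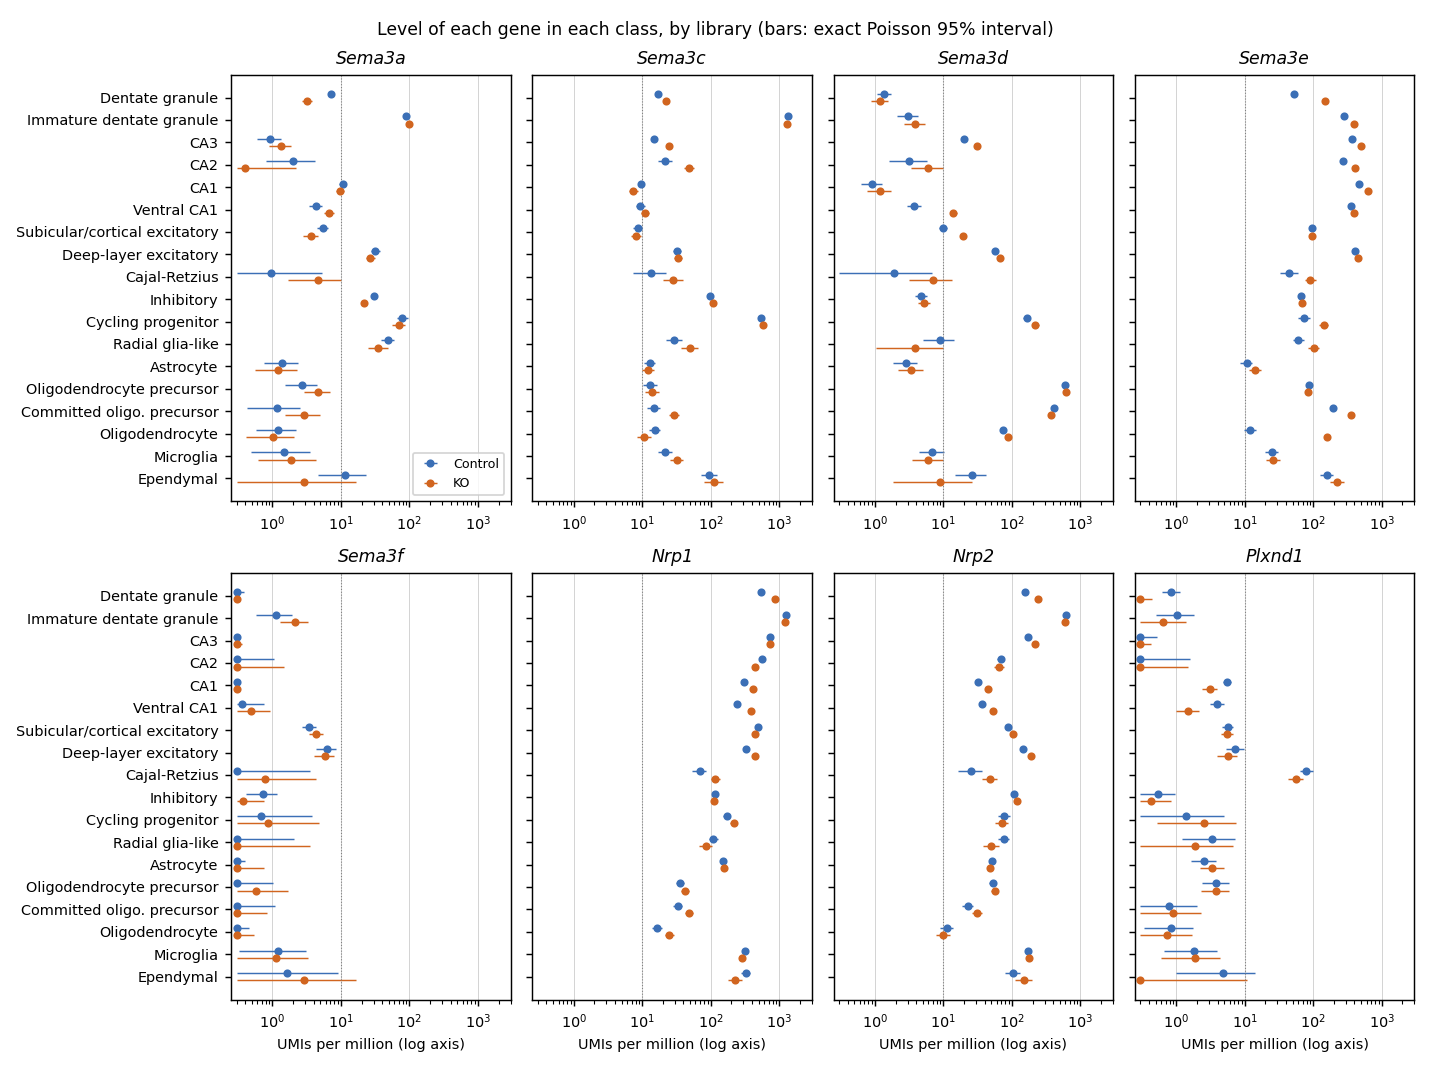
Level of each of the 8 genes in 18 marker-defined classes (each "like" the cell type named), in CPM on a log axis, control in blue and the library labelled knockout in orange. Bars are exact Poisson 95% intervals, values under 0.3 are drawn at 0.3, and the dotted line marks 10 CPM. Sema3c peaks in immature granule-like nuclei at 1359 and 1319, Sema3d in oligodendrocyte precursor-like nuclei at 590 and 609, and the orange point of Sema3e lies far to the right of the blue one in oligodendrocyte-like nuclei.

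A gene was called between the libraries by size alone: a minimum of 50 UMIs together with 10 CPM in whichever library was higher, and a difference of at least 2-fold. Of the 144 gene-class pairs, 83 reached the minimum counts and 5 passed the rule, all 5 higher in the library labelled knockout. They were Sema3e in oligodendrocyte-like, granule-like and Cajal-Retzius-like nuclei, Sema3d in ventral CA1-like nuclei and Sema3c in CA2-like nuclei. Among all genes with the minimum counts the same rule called 3.84% in oligodendrocyte-like, 3.11% in granule-like, 2.81% in Cajal-Retzius-like, 2.81% in ventral CA1-like and 3.4% in CA2-like nuclei. In each of these 5 classes 1 gene of the family was called, out of 5, 4, 4, 5 and 4 with the minimum counts. Each of these counts thus rests on a single gene. No family gene was called in inhibitory-like nuclei, 0 of 5 against 0.102% of all genes, nor in immature granule-like nuclei, 0 of 5 against 0.283%. In the other classes without a call the share of all genes was 1.9% in subicular or cortical excitatory-like, 1.86% in deep-layer excitatory-like, 0.497% in cycling progenitor-like, 1.58% in radial glia-like, 0.223% in astrocyte-like, 0.191% in oligodendrocyte precursor-like, 1.24% in committed precursor-like, 0.678% in microglia-like and 7.21% in ependymal-like nuclei. In CA3-like and CA1-like nuclei the counts were 0 of 5 and 0 of 4, against 1.6% and 3.99% of all genes.

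Sema3e in the oligodendrocyte lineage gave the widest difference of the family. In oligodendrocyte-like nuclei its UMIs numbered 98 in 1032 control nuclei and 1079 in 809 nuclei of the library labelled knockout. That is 11.9 against 157 CPM, a log2 ratio of 3.71 (95% counting interval 3.42 to 4.03). At least 1 Sema3e UMI was found in 6.30% of the control nuclei and in 51.1% of the others. Nuclei with at least 2000 UMIs were also thinned to 2000, and the rest were left out. The shares were then 2.15% and 23.4%. Microglia-like nuclei, a type that should lack the gene, gave 4.68% and 4.40%, their median depth being 2136 UMIs in the control and 1721 in the other library. Thinned in the same way they gave 4.21% and 3.47%, with many nuclei left out at these depths. The control share in oligodendrocyte-like nuclei, at a median depth of 7715 UMIs, was thus under the microglia-like share after thinning, and that of the library labelled knockout, at 8174, above it. Upper limits for free RNA were 9.37% and 5.89% of the UMIs for oligodendrocyte-like nuclei, but 24.6% and 10.6% for microglia-like nuclei. These limits cannot show the true background, so the microglia-like share cannot be taken as the background of the other class. How much of the low control level was background was not settled. With free RNA subtracted the log2 ratio was 5.99. The same subtraction moved Sema3c in this class from -0.52 to 4.96, so subtracted ratios were unstable at such low levels. Of the 809 oligodendrocyte-like nuclei of the library labelled knockout, 157 held exactly 1 Sema3e UMI and 256 held more. With called doublets kept, a second and deeper cluster of 664 control and 422 other nuclei (medians of 16463 and 16755 UMIs) joined the class and the log2 ratio was 1.05.

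Female nuclei, from 1 mouse per library, gave 9.90 and 123 CPM of Sema3e in the oligodendrocyte-like class. Male nuclei, from 2 mice per library, gave 11.8 and 187. Both pools of the library labelled knockout lay above both control pools, with log2 ratios of 3.60 and 3.98; the same order of pools was found for 14.8% of all genes in the class. Markers of the class itself summed to 28688 and 27713 CPM. CA1 markers, of interest because CA1-like nuclei hold much Sema3e, summed to 2738 and 5024, with 5 of 10 higher and none at 0. Most of that shift was Pex5l, at 949 and 3489, while the other 9 summed to 1789 and 1535, and Fibcd1 had 21 and 3 UMIs. Markers of inhibitory cells of caudal origin summed to 541 and 910 (4 of 11 higher) and those of astrocytes to 213 and 301 (6 of 10 higher), with none at 0 in the control. The part of these genes in the Sema3e difference was not tested.

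Along the rest of the lineage the difference varied with the cluster. Sema3e in oligodendrocyte precursor-like nuclei stood at 86.6 and 85.2 CPM, a log2 ratio of -0.02 (-0.21 to 0.16). Committed precursor-like nuclei fell into 2 clusters. In cluster 17, led by Bmp4, Bcas1 and Neu4, Sema3e stood at 22.9 and 89.2 CPM, a log2 ratio of 1.95 (1.5 to 2.45). In cluster 21, led by genes such as Casr and Tcf7l2, it stood at 307 and 590, a log2 ratio of 0.94 (0.82 to 1.06). Over the 2 clusters together, markers of committed precursors summed to 11914.5 and 10555.7 CPM (1 of 9 higher). Oligodendrocyte markers summed to 15486 and 13436 (0 of 10 higher) and oligodendrocyte precursor markers to 2257 and 2406 (5 of 8 higher). Their part in the Sema3e difference was not tested. The lowest ratio was that of the precursors and the highest that of the oligodendrocyte-like nuclei. With the family and the called genes left out of the clustering, the committed nuclei divided otherwise, and the low control level of cluster 17 was not found. The cluster led by Bmp4 then gave 123 and 275 CPM of Sema3e, a log2 ratio of 1.16 (0.99 to 1.33), and the one led by Cnksr3 and Casr 415 and 587, a log2 ratio of 0.50 (0.34 to 0.67). Precursor-like nuclei gave -0.03 and oligodendrocyte-like nuclei 3.69 in that clustering. In the same precursor-like nuclei Etv4 stood at 122 and 192 CPM, and in oligodendrocyte-like nuclei at 1.09 and 35.3.

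**Figure D2:**
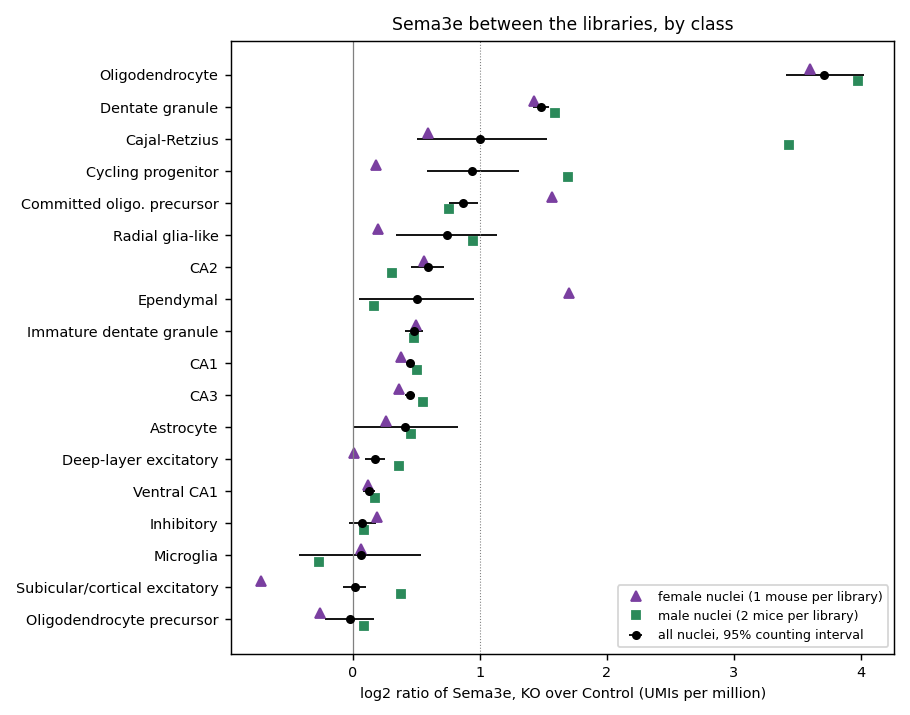
Log2 ratio of Sema3e, library labelled knockout over control, in 18 classes sorted by the ratio. Black points are all nuclei with 95% counting intervals, purple triangles the female and green squares the male nuclei of each pool. The dotted line marks a 2-fold difference. The oligodendrocyte-like class stands at 3.71 and the oligodendrocyte precursor-like class at -0.02.

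In granule-like nuclei, the cells that send the mossy fibres, Sema3e had 3061 UMIs in 4751 control nuclei and 6173 in 3795 nuclei of the library labelled knockout. That is 53.0 against 148 CPM, a log2 ratio of 1.48 (1.42 to 1.54). Female nuclei gave 54.8 and 147, and male nuclei 48.0 and 145, an order of pools found for 33.1% of all genes in the class. The share of nuclei with a Sema3e UMI was 30.3% and 62.8%, or 9.50% and 24.3% after thinning.

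The granule-like class was made of different clusters in the 2 libraries. Control nuclei were mostly in cluster 1 (3756, against 275 of the library labelled knockout), the others mostly in cluster 5 (236 control and 2222) with more in cluster 7 (759 and 1298). Within cluster 1 the log2 ratio of Sema3e was 1.51 (1.31 to 1.70), from 33.9 to 96.4 CPM. In cluster 5 it was 0.63 (0.45 to 0.83), from 73.2 to 114, and in cluster 7 it was 0.60 (0.51 to 0.70), from 155 to 235. Sema3e was thus higher in the library labelled knockout in each cluster, by less than 2-fold in 2 of the 3. Weighting the clusters alike in both libraries gave a log2 ratio of 1.14 with the control's shares and 0.65 with those of the library labelled knockout. When nuclei were clustered without the family genes and without any gene past the size rule, the granule-like nuclei fell into 2 clusters that each held many nuclei of both libraries. One, with 3451 and 2407 nuclei, gave 32.5 and 112 CPM, a log2 ratio of 1.78. The other, with 1370 and 1429 nuclei, gave 131 and 236, a log2 ratio of 0.85. Markers of immature granule cells in the granule-like class summed to 197 and 264 CPM, with 8 of 8 higher in the library labelled knockout, and markers of mature granule cells to 5443 and 4144, with 2 of 10 higher. Their part in the Sema3e difference was not tested.

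Immature and cycling nuclei also held Sema3e. Immature granule-like nuclei, cluster 0, gave 286 and 399 CPM, a log2 ratio of 0.48 (0.41 to 0.55), with 0.49 in female and 0.48 in male nuclei. Cycling progenitor-like nuclei gave 73.7 and 142, a log2 ratio of 0.94 (0.59 to 1.31), which was 0.18 in female and 1.69 in male nuclei. That class pooled 2 lineages. Cluster 20, which had Eomes among its leading genes, gave 63.9 and 181 CPM, a log2 ratio of 1.5 (1.06 to 1.96). Cluster 31, whose second marker set was that of oligodendrocyte precursors, gave 94.7 and 72.7, a log2 ratio of -0.37 (-1.09 to 0.31). In both libraries the level was higher in the immature cluster than in granule-like clusters 7, 5 and 1.

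**Figure D3:**
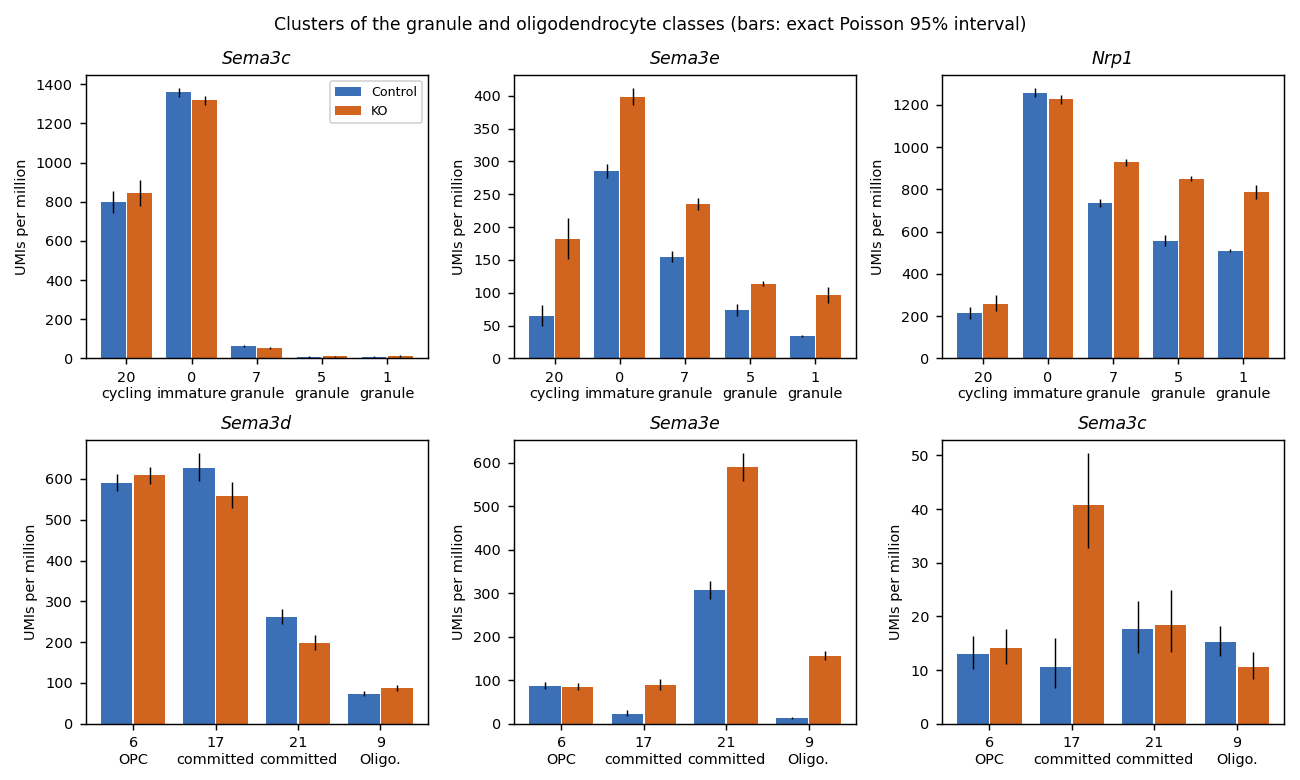
Levels in CPM, from 0, in clusters of the granule classes (top) and of the oligodendrocyte classes (bottom; OPC, oligodendrocyte precursor-like), control in blue and the library labelled knockout in orange, with exact Poisson 95% intervals as lines. Sema3c peaks in immature cluster 0, Sema3d is high in clusters 6 and 17 in both libraries, and Sema3e in oligodendrocyte-like cluster 9 stands at 11.9 and 157.

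Pyramidal nuclei, which held the most Sema3e among the 18 classes, differed less in ratio than granule-like nuclei. CA1-like nuclei gave 458 and 627 CPM, a log2 ratio of 0.45 (0.42 to 0.49), and CA3-like nuclei 370 and 506, also 0.45 (0.41 to 0.49). In CA2-like nuclei the ratio was 0.59, in deep-layer excitatory-like nuclei 0.17, which turned to -0.11 with nuclei thinned to 2000 UMIs, and in ventral CA1-like nuclei 0.13. Inhibitory-like nuclei gave 65.6 and 69.2, a log2 ratio of 0.08 (-0.03 to 0.19). Marker sets moved in CA1-like nuclei. Those of immature granule cells summed to 80.3 and 145 CPM (7 of 8 higher) and those of CA2 to 252 and 346 (6 of 10 higher). CA1 markers themselves summed to 3964 and 3526 (5 of 10 higher) and deep-layer markers to 616 and 480 (6 of 9 higher). Their part in the CA1-like differences was not tested. Over the 18 classes the counting interval of Sema3e lay above 0 in 14, the deep-layer class among them, and below 0 in none. The share of all genes with such an interval was not counted. Of all genes with at least 20 UMIs, 62.8% were higher in the library labelled knockout in ventral CA1-like nuclei. That was the highest share of the 18 classes, and the lowest was 37.6%, in oligodendrocyte-like nuclei. The called difference in Cajal-Retzius-like nuclei was at the limit of the rule, with 47 and 117 UMIs, 44.9 and 90.4 CPM and a log2 ratio of 1.00 (0.51 to 1.53). The control UMIs came from 10 of 177 nuclei there. Female nuclei gave 67.3 and 102 and male nuclei 2.48 and 39.2, so the pools overlapped. Cluster 15, which stayed unnamed and had Npsr1 and Tecta among its leading genes, held 4.11 and 26.1 CPM of Sema3e, from 26 and 159 UMIs, a log2 ratio of 2.65 (2.07 to 3.33). The rule called 3.53% of all genes in that cluster.

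An antisense gene, Gm4128, overlaps Sema3e on the opposite strand and has counts of its own. Its UMIs numbered 6 and 41 in oligodendrocyte-like nuclei and 132 and 301 in granule-like nuclei, log2 ratios of 2.93 and 1.66. Strand-specific counting is not stated in the sources used here, so reads of the 2 genes cannot be told apart with certainty. Pclo, the next protein-coding gene after Sema3e, gave log2 ratios of 0.00 and -0.13 in the same classes.

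Capicua binds DNA at octamers of the form TGAATGAA or TGAATGGA and at close variants in which the second base is C. The sequences upstream of the family's start sites were searched for them because Sema3e was higher in many classes, and 7 of the 8 genes had an entry (RefSeq, build GRCm38.p6). In the 250 bases before each start, TGAATGAA, TGAATGGA, TCAATGAA and TCAATGGA were found on neither strand in any of the 7. One or more of the 4 occur in 3.19% of 32851 mouse promoters of the same length. The 6-base core TGAATG, which lies within the first 2 octamers, occurs in 10.9% of them and was found in 2 of the 7, Sema3e and Sema3c. These 2 are shown with the core, or its reverse complement CATTCA, in capitals, both on the + strand of chromosome 5, chr5:14025026-14025275 for Sema3e and chr5:17574566-17574815 for Sema3c.
Sema3e: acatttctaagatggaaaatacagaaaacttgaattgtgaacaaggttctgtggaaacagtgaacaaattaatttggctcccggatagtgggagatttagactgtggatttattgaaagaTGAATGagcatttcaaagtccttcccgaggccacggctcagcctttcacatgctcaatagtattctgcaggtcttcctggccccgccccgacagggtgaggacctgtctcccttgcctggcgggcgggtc
Sema3c: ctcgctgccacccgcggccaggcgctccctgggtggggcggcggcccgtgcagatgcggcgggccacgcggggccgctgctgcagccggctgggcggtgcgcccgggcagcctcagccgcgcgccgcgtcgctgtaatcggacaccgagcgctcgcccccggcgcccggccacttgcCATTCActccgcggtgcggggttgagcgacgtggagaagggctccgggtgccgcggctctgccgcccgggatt
The core begins 130 bases before the start of Sema3e and 73 bases before that of Sema3c. The Sema3c stretch is 78.4% G and C and the Sema3e stretch 48%. Such a match describes letters only and is not a binding site.

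Sema3d, a secreted guidance cue, was abundant in the oligodendrocyte lineage at similar levels in both libraries. Oligodendrocyte precursor-like nuclei gave 590 and 609 CPM, a log2 ratio of 0.04 (-0.03 to 0.12), with a UMI in 85.9% and 85.4% of nuclei. Committed precursor-like nuclei gave 410 and 371, a log2 ratio of -0.14, and oligodendrocyte-like nuclei 73.8 and 86.9, a log2 ratio of 0.23.

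Among excitatory classes the level of Sema3d and its ratio varied. Ventral CA1-like nuclei held 73 and 282 UMIs, or 3.75 and 13.9 CPM, a log2 ratio of 1.89 (1.52 to 2.29). Female nuclei gave 3.84 and 12.8 CPM and male nuclei 4.50 and 12.8, so the pools did not overlap, which held in this direction for 40.2% of all genes in the class. The share of nuclei with a Sema3d UMI was 5.59% and 11.8%. After thinning it was 0.448% and 1.97%, where microglia-like nuclei, many of them left out for depth, gave 1.44% and 0.771%. The upper limit for free RNA was 3.84% of control UMIs in ventral CA1-like and 24.6% in microglia-like nuclei. The share in microglia-like nuclei is thus not taken as a measure of background here. Markers of other types moved in the same class: those of immature granule cells summed to 109 and 157 CPM (7 of 8 higher, none at 0) and those of Cajal-Retzius cells to 81.0 and 129 (8 of 9 higher, with Lhx1 and Ebf3 at 0 in the control). Oligodendrocyte precursor markers summed to 42.7 and 44.5. The part of these sets in the Sema3d difference was not tested. The level also varied with the border of the class. In the clustering without the family and the called genes, ventral CA1-like nuclei (1162 and 1245) held 327 and 1000 Sema3d UMIs. That is 13.2 and 43.6 CPM, a log2 ratio of 1.72 (1.54 to 1.91).

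The CA3-like class as a whole gave 20.1 and 31.4 CPM of Sema3d, a log2 ratio of 0.64 (0.48 to 0.80), with 1.14 in female and 0.10 in male nuclei. Its 2 clusters went in opposite directions. In cluster 10, the larger, led by Iyd and Scin among others, Sema3d stood at 9.01 and 26.9, a log2 ratio of 1.57 (1.34 to 1.81), with 1.67 in female and 1.13 in male nuclei. In cluster 18, led by Col6a1 and Vgll3 among others, it stood at 66.9 and 48.2, a log2 ratio of -0.47 (-0.71 to -0.24), with 0.32 in female and -1.02 in male nuclei. The rule called 1.84% of all genes in cluster 10 and 1.63% in cluster 18. When clustering left out the family and the called genes, CA3-like nuclei formed 1 cluster of 1400 and 1305 nuclei with 18.2 and 28.9 CPM.

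Elsewhere Sema3d also varied with the cluster. In the subicular or cortical excitatory-like class, cluster 12 gave 8.24 and 25.8 CPM of Sema3d, a log2 ratio of 1.64 (1.33 to 1.97), 2.03 in female and 1.82 in male nuclei. In cluster 19 of that class Sema3d gave 15.3 and 12.9, with an interval of -0.72 to 0.23. Unnamed cluster 22, led by C1qtnf7, Cpa6 and Unc13c, gave 90.8 and 183, a log2 ratio of 1.01 (0.85 to 1.18). Its best marker set was that of ventral CA1, with too few markers raised for a name, and it held 180 and 346 nuclei. The rule called 3.17% of all genes in cluster 12 and 2.38% in cluster 22. In deep-layer excitatory-like nuclei Sema3d stood at 57.0 and 66.8, and in inhibitory-like nuclei at 4.72 and 5.26.

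Counted over single clusters in place of classes, a choice made after the class values were seen, 126 gene-cluster pairs reached the minimum counts in 28 clusters of at least 100 nuclei per library and 16 passed the rule. Sema3e accounted for 7 of them, in clusters 1, 9, 15, 17, 20, 24 and 27, and Sema3d for 4, in clusters 8, 10, 12 and 22, all higher in the library labelled knockout. Of all genes, 2.94% were called in cluster 1, 1.04% in cluster 20 and 7.44% in cluster 27. The share was 3.84% in cluster 9, 3.53% in cluster 15 and 2.81% in clusters 24 and 8. It was 1.84% in cluster 10, 3.17% in cluster 12, 2.38% in cluster 22 and 1.95% in cluster 7. In clusters without a family call it ran from 0.114% in cluster 11 to 7.21% in cluster 23. Sema3c was called higher in clusters 17 and 26 and Nrp1 higher in cluster 17, against 1.48% and 3.4% of all genes called in those 2 clusters. Sema3a was called lower in cluster 7 and Plxnd1 lower in cluster 15.

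**Figure D4:**
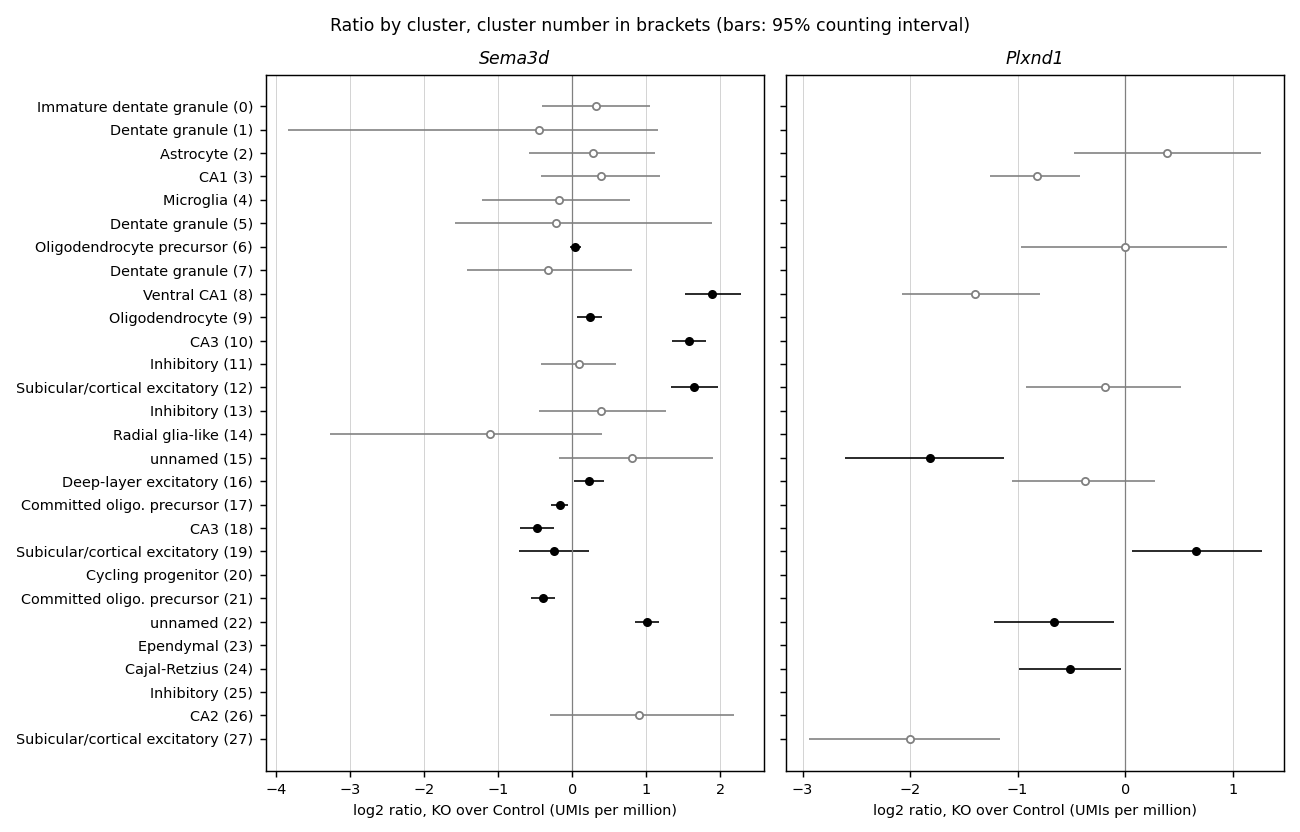
Log2 ratio of Sema3d and of Plxnd1, library labelled knockout over control, in clusters of at least 100 nuclei in each library, with 95% counting intervals; clusters with fewer than 20 UMIs in both libraries together, or with none in 1 library, are left out. Filled points reached 50 UMIs and 10 CPM in the higher library, open points did not. Sema3d lies above 1 in clusters 8, 10, 12 and 22 and below 0 in cluster 18, and Plxnd1 lies at -1.81 in cluster 15.

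Sema3c, a ligand of both neuropilins that attracts some axons, differed little where it was highest. Immature granule-like nuclei held 14592 and 12399 UMIs, or 1359 and 1319 CPM, a log2 ratio of -0.04 (-0.08 to -0.01), with a UMI in 94.5% and 93% of nuclei. With the family left out of the clustering the ratio in that class was -0.06. In the mature granule clusters Sema3c was lower in both libraries, at 64.7 and 52.8 CPM in cluster 7, 6.71 and 10.1 in cluster 5 and 9.47 and 11.3 in cluster 1. For the granule-like class as a whole the ratio was 0.41, which became 0.00 with clusters weighted by the control's shares and -0.07 with those of the library labelled knockout. Astrocyte-like nuclei, at 13.0 and 12.2, were near the levels of clusters 1 and 5.

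In CA2-like nuclei Sema3c had 75 and 121 UMIs in 143 and 120 nuclei, or 21.7 and 48.6 CPM, a log2 ratio of 1.16 (0.73 to 1.60). Female nuclei gave 27.5 and 47.2 and male nuclei 17.3 and 49.8. Markers of committed oligodendrocyte precursors summed to 240 and 335 CPM in the class (7 of 9 higher, Bmp4 at 0 in the control), those of immature granule cells to 105 and 146 (4 of 8 higher, none at 0), those of mossy cells to 193 and 247 (3 of 9 higher, with Drd2 among 3 at 0) and those of Cajal-Retzius cells to 33.3 and 10.8. Their part in the Sema3c difference was not tested. With nuclei thinned to 2000 UMIs the ratio was 0.25, with doublets kept it was 0.40, and in both cases it fell short of 2-fold. CA3-like nuclei gave 14.7 and 24.8 CPM of Sema3c, a log2 ratio of 0.76 (0.58 to 0.94), with 0.72 in female and 0.81 in male nuclei. In CA1-like nuclei the ratio was -0.38, on 9.67 and 7.44. Sema3c in committed precursor-like cluster 17 counted 22 UMIs in the control and 87 in the other library, a log2 ratio of 1.94 (1.27 to 2.71), which was 0.36 in female and 1.73 in male nuclei. In the Bmp4-led cluster of the clustering without these genes it was 1.78 (1.26 to 2.36), and in the other committed cluster -1.18 on 34 and 11 UMIs. In inhibitory-like cluster 25, led by Mctp2, Hapln1 and Gad2 among others, Sema3c stood at 283 in both libraries.

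Sema3a, the collapse-inducing ligand of Nrp1, was lower in granule-like nuclei of the library labelled knockout. It had 412 and 134 UMIs there, or 7.13 and 3.21 CPM, a log2 ratio of -1.15 (-1.44 to -0.87), under the minimum of 10 CPM. Female nuclei gave 6.63 and 2.71 and male nuclei 6.42 and 3.38. In cluster 7, where it reached the minimum, it stood at 13.4 and 5.12, a log2 ratio of -1.38 (-1.86 to -0.92), with 1.95% of all genes called there. In cluster 5 the ratio was -1.90, on 31 and 66 UMIs. Clustering without the family and the called genes gave -1.12 and -1.48 in the 2 granule-like clusters. In immature granule-like nuclei the level was 90.0 and 98.6, a log2 ratio of 0.13. Inhibitory-like nuclei gave 30.6 and 22.0, a log2 ratio of -0.48 (-0.66 to -0.30). Most of these UMIs were in cluster 11, whose leading genes include Lhx6 and Nxph1, at 50.2 and 39.6 CPM.

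Sema3f, the ligand of Nrp2 known for its part in trimming mossy fibre branches, did not reach the minimum counts in any class. CA3-like nuclei held 3 UMIs in each library, CA1-like nuclei 2 and 1, and inhibitory-like nuclei 16 and 7. Its highest class, deep-layer excitatory-like nuclei, held 38 in each, with a UMI in 9.49% and 8.76% of nuclei. Granule-like nuclei held 13 and 2. These counts are too few to compare the libraries by the size rule.

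The neuropilins were higher in mature granule-like nuclei of the library labelled knockout by less than 2-fold. Nrp1 gave 543 and 869 CPM, a log2 ratio of 0.68 (0.66 to 0.70). Female nuclei gave 575 and 848 and male nuclei 517 and 883, an order of pools found for 33.1% of all genes in the class. By cluster the ratio was 0.63 in cluster 1, 0.61 in cluster 5 and 0.33 in cluster 7. In immature granule-like nuclei it was -0.04, on 1258 and 1226. The immature cluster and cluster 1 thus stood at 1258 and 509 in the control and at 1226 and 788 in the other library. Only 275 of the 3795 granule-like nuclei of the library labelled knockout were in cluster 1. Their median was 8614 UMIs, against 11892.5 for the control nuclei there.

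Nrp2 followed a like pattern in granule-like nuclei, with 158 and 244 CPM and a log2 ratio of 0.63 (0.59 to 0.67). The ratio was 0.57 in cluster 1, 0.54 in cluster 5 and 0.08 in cluster 7, and -0.01 in immature granule-like nuclei. Gm29083, which overlaps Nrp2 on the other strand, had 3 and 11 UMIs in mature granule-like nuclei. With the granule-like clusters weighted alike in both libraries, a comparison added after the data were seen, Nrp1 gave 0.58 with the control's cluster shares and 0.52 with the other library's, and Nrp2 gave 0.46 and 0.36.

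In pyramidal nuclei the neuropilins differed by region. Nrp1 in CA3-like nuclei, the target of the mossy fibres, stood at 731 and 729 CPM, a log2 ratio of -0.01 (-0.03 to 0.02). In CA1-like nuclei it stood at 302 and 413 (0.45, 0.41 to 0.49) and in ventral CA1-like nuclei at 245 and 382 (0.64, 0.59 to 0.69), while CA2-like nuclei had 566 and 451 (-0.33, -0.43 to -0.22). The female and male ratios of Nrp1 had the same sign in CA1-like, ventral CA1-like and CA2-like nuclei. Nrp2 gave 173 and 219 in CA3-like nuclei (0.34), 32.1 and 44.9 in CA1-like nuclei (0.49) and 36.7 and 53.1 in ventral CA1-like nuclei (0.53). Inhibitory-like nuclei gave 114 and 113 for Nrp1, a log2 ratio of -0.02 (-0.10 to 0.06), and 108 and 120 for Nrp2, a log2 ratio of 0.15. That Nrp2 ratio was -0.12 in female nuclei alone. In committed precursor-like cluster 17, Nrp1 counted 46 UMIs in the control and 131 in the other library, a log2 ratio of 1.48 (0.99 to 2.00), and in cluster 21 it had 124 and 86. With the family and the called genes left out of the clustering, the committed cluster led by Bmp4 gave 113 and 177 UMIs of Nrp1, a log2 ratio of 0.78 (0.44 to 1.14), under 2-fold.

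Plxnd1, the receptor of Sema3e, reached the minimum counts in 1 class. Cajal-Retzius-like nuclei gave 83 and 72 UMIs, or 79.3 and 55.6 CPM, a log2 ratio of -0.51 (-0.99 to -0.04), with -0.41 in female and 0.02 in male nuclei and 0.0095 with nuclei thinned to 2000 UMIs, so the direction there was not stable. Below the minimum in CPM, Plxnd1 was lower in CA1-like and ventral CA1-like nuclei. CA1-like nuclei held 189 and 68 UMIs (5.52 and 3.11 CPM), a log2 ratio of -0.82 (-1.25 to -0.42). Ventral CA1-like nuclei held 77 and 30 (3.95 and 1.48), a log2 ratio of -1.40 (-2.07 to -0.79). Unnamed cluster 15, where Plxnd1 had the minimum counts, held 78 and 21 (12.3 and 3.45), a log2 ratio of -1.81 (-2.61 to -1.13), with -1.61 in female and -2.13 in male nuclei. In that cluster Sema3e and Plxnd1 were both called, in opposite directions. In cluster 27, of the subicular or cortical excitatory-like class, Plxnd1 had 38 and 17 UMIs, a log2 ratio of -2.00. In cluster 19 of that class it had 43 and 57. CA3-like nuclei held 8 and 4 UMIs of Plxnd1, too few to compare.

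The A plexins are the partners through which neuropilins signal. Plxna4 in granule-like nuclei stood at 1614 and 1591 CPM, a log2 ratio of -0.02, and in CA3-like nuclei at 686 and 636, a log2 ratio of -0.11. Plxna2 gave log2 ratios of 0.26 in granule-like nuclei, 0.23 in those of CA3 and -0.37 in those of CA1. Plxna1 in CA3-like nuclei stood at 32.7 and 33.0. Wider ratios were found in the oligodendrocyte lineage. Plxna2 stood at 18.6 and 33.6 CPM in committed precursor-like nuclei (0.85, 0.48 to 1.24) and Plxna4 at 26.3 and 17.6 in oligodendrocyte-like nuclei (-0.58, -0.92 to -0.25). Plxna4 stood at 755 and 446 in the ependymal-like cluster (-0.76, -1.03 to -0.49). That cluster was shallow, with upper limits for free RNA of 32.5% and 12.7% of its UMIs. It held 280 and 160 nuclei, but 21 and 20 in the clustering without the family and the called genes. Most of its nuclei thus did not keep the name. The part of free RNA in the Plxna4 difference was not tested. None of the 4 A plexins passed the rule in the 18 classes.

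A list of 72 further genes of the pathway (other class 3 semaphorins, A plexins, co-receptors, vascular growth factor ligands and receptors, matrix molecules, and effectors at the plexin and at the cytoskeleton) was read the same way. In granule-like nuclei 64 of them had at least 20 UMIs, 32 were higher and 32 lower, and the median log2 ratio was -0.00 against 0.03 for all 18118 genes. Of the 45 with the minimum counts 3 passed the rule there, against 3.11% of all genes, all higher: Dpysl3 (2.09, a collapsin response mediator protein that acts on the cytoskeleton downstream of semaphorins), Robo1 (1.88, a Slit receptor) and Acan (1.72, a proteoglycan of the matrix). Robo1 stood at 841 and 3096 CPM.

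In CA3-like nuclei the median of the list was 0.08, as it was for all genes, and 3 of 43 with the minimum counts passed the rule, against 1.6% of all genes, all higher: Limk1 (1.26, a kinase that inactivates cofilin), Dpysl5 (1.17) and Farp1 (1.17). In CA1-like nuclei the median was 0.10 against 0.09, and 4 of 41 were called against 3.99% of all genes, with Dpysl3 (1.92), Robo1 (1.65) and Dpysl5 (1.46) higher and Ptprz1 (-1.08) lower. Oligodendrocyte-like nuclei had 2 of 38 called against 3.84% of all genes, Dpysl5 higher (1.63) and Cntn2, an adhesion molecule of the myelinated axon, lower (-1.19). Committed precursor-like nuclei had 1 of 44 against 1.24%, Dpysl5 higher (1.68). Ventral CA1-like nuclei had 2 of 46 against 2.81%, Dpysl3 (1.26) and Robo1 (1.25), both higher. In CA2-like nuclei 3 of 42 were higher and 1 lower against 3.4%, led by Limk1 (1.5) and Alcam (1.20). Cajal-Retzius-like nuclei had 1 of 35 against 2.81%, Nrcam higher (1.66), and radial glia-like nuclei 2 of 36 against 1.58%, Chn2 (-1.99) and Hapln1 (-1.19), both lower. No gene of the list passed the rule in the other 9 classes. Of all genes the rule called 0.102% in inhibitory-like, 0.191% in oligodendrocyte precursor-like, 0.223% in astrocyte-like and 0.283% in immature granule-like nuclei, where 50, 52, 47 and 51 of the list had the minimum counts. In cycling progenitor-like and microglia-like nuclei it called 0.497% and 0.678%, with 36 and 46 of the list, for the deep-layer class 1.86%, with 44, for the subicular or cortical one 1.9%, with 47, and in ependymal-like nuclei 7.21%, with 24.

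Across the 18 control classes, each a single value from 1 library, the pattern of each gene was set beside those of 16544 others by Pearson's r of log2(CPM + 1), as a description only. Sema3e was most like its antisense gene Gm4128 (0.97) and then Fhl2 (0.86). Nrp1 was most like Plxna4os2 (0.90), Prkce (0.89) and Plxna4 (0.88), the gene of a plexin that signals with neuropilins. Sema3d was most like Shc4 (0.89) and Sox10 (0.87), the latter a transcription factor of the oligodendrocyte lineage, Sema3c most like Lemd1 (0.91) and Plxnd1 most like Casz1 (0.86). Sema3a was most like Drosha (0.85).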

How the data were processed

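The deposited files hold raw UMI counts per gene and nuclear barcode for 1 library per genotype, made with Cell Ranger 8.0.1 on build mm39, per the file headers and the submitters' processing notes. Settings for introns and strand are not given in the sources used here. The 8 genes, the marker sets and the pathway list were chosen with earlier results of these data known. Nuclei with at least 500 genes and at most 5% mitochondrial UMIs were kept, and Scrublet doublets (12.7% of the control, 10.9% of the other library) were left out (scanpy 1.11.5). Both libraries were clustered jointly, without batch correction (3000 variable genes, 30 components, 15 neighbours, Leiden resolution 1, leidenalg 0.10.2), giving 34 clusters. A cluster was named by the best of 27 marker sets, with at least 3 markers raised. After the clusters were seen, the inhibitory sets were merged into 1 class and a very deep cluster was left unnamed, so 3 clusters stayed unnamed.

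UMIs were summed per library and class and divided by the class total. The log2 ratio is the library labelled knockout over control with 0.5 UMI added to each sum. Intervals are 95% and exact (conditional binomial for ratios, Poisson for levels, scipy 1.17.1) and cover counting error only. No test was made, since each group is 1 library. Nuclei with at least 2 Xist UMIs and no Y-linked UMI were called female, and those with no Xist and at least 1 Y-linked UMI male. Pathway genes were named where they passed the size rule with the same sign in both sexes, at most 6 per class in granule, CA3 and CA1 nuclei and at most 2 elsewhere. For each family gene the 3 most similar genes could be named. The size rule was tested on simulated data. The neighbouring and antisense genes come from GENCODE on GRCm38, which held 94.9% of the gene IDs, and promoters from RefSeq on GRCm38.p6. No coordinate was converted between builds. Alternatives covered scaling, count minimum, doublets, sex pools, thinning, free RNA, clustering genes and genes per nucleus.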

Additional observations from a re-analysis of the deposited data

Results flagged for a closer look

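In 5 of the 83 gene-class pairs with the minimum counts, female and male nuclei differed between the libraries in opposite directions, with both counting intervals leaving out 0. Each value is a log2 ratio, library labelled knockout over control, and the difference between the sexes was not tested. Each pool held a single female animal and 2 males, so sex and animal cannot be told apart. Sema3e in subicular or cortical excitatory-like nuclei gave -0.72 in female and 0.38 in male nuclei. Sema3c in deep-layer excitatory-like nuclei gave 1.42 and -0.51, and Sema3d in cycling progenitor-like nuclei gave -0.78 and 0.55. In the control nearly all Sema3d of the cycling class was in cluster 31. That cluster held 21 control and 8 other female nuclei, and 27 and 33 male ones. The whole class held 109 and 74 female and 117 and 126 male nuclei. The part of this mix in the Sema3d difference was not tested. Nrp1 gave -0.39 and 0.18 in inhibitory-like nuclei and -0.13 and 0.060 in immature granule-like nuclei.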

How the results depend on the processing

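No paired analysis was possible because each group is 1 library and holds replicate 1 alone. No called ratio changed sign under the alternatives. The 5 calls of family genes became 9 with a minimum of 20 UMIs and none in CPM, 8 in female nuclei alone and 12 with free RNA subtracted. Sema3e in oligodendrocyte-like nuclei (3.71 as reported) gave 1.05 with doublets kept and 5.99 with free RNA subtracted. That subtraction also moved the uncalled Sema3c ratio of the same class from -0.52 to 4.96. Sema3e in granule-like nuclei (1.48) gave 1.59 in male nuclei, 1.63 with free RNA subtracted, and 1.14 and 0.65 with clusters weighted by control and by knockout-labelled shares, a choice made after seeing the data. Sema3c in CA2-like nuclei (1.16) gave 0.40 with doublets kept and 0.25 after thinning, and had no value when clustering left out the called genes, since no CA2-like class formed. Sema3d in ventral CA1-like nuclei (1.89) gave 1.5 in male nuclei and 2.35 after thinning. Sema3e in Cajal-Retzius-like nuclei (1.00) gave 3.43 in male nuclei, where the 69 control nuclei held very few Sema3e UMIs. Thinned shares of nuclei with a Sema3e UMI were 2.15% and 23.4% in oligodendrocyte-like and 9.50% and 24.3% in granule-like nuclei. Genes past the rule numbered 263 in granule-like, 240 in ventral CA1-like, 9 in inhibitory-like and 313 in oligodendrocyte-like nuclei. With the lower minimum they numbered 918, 787, 192 and 689. Free RNA subtraction gave 399 in granule-like and 23 in inhibitory-like nuclei, female nuclei alone 409 in ventral CA1-like and 51 in inhibitory-like nuclei. In oligodendrocyte-like nuclei there were 141 with doublets kept and 202 after thinning. With median-of-ratios scaling the pathway list's median was -0.030 in granule-like and -0.054 in inhibitory-like nuclei. Of 743 values of uncalled pairs under alternatives, 667 had the reported sign and 190 lay outside the reported counting interval. Where the reported interval left out 0, 463 of 482 values had the reported sign. Except where the setting's own construction shows it, the cause was not tested. Among the 18 classes, Sema3f and, outside Cajal-Retzius-like nuclei, Plxnd1 lay under the minimum in CPM.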
